A study of Mus musculus with 5 samples.

Results

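Genes that mark monocytes and macrophages, 10 in all, were followed across the pancreatic leukocytes of 5 mice. They were taken from a fixed list and each was read from the probe set of highest mean that names that gene alone. Of the 10 genes listed, 9 had such a probe set among 19938 genes, and 7 of these passed the expression filter, a mean log2 intensity of at least 6, as did 6603 genes in all. Csf1r, Adgre1, Cd14, Cd68, Sirpa, Lyz2 and Plac8 passed, Chil3 and Vcan lay under the filter, and Ly6c2 had no probe set of its own.

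The cells were CD45+ leukocytes that had been sorted by flow cytometry out of the pancreas of wild-type NOD females, all 10 weeks old, with 1 array for each mouse. NOD is an inbred strain that develops autoimmune diabetes without induction. The labels place the mice in 1 group, list no treatment and no control animals, and give each mouse its own T2 from MRI. Injection of a contrast agent for the scan is neither stated nor excluded by them. T2 is the transverse relaxation time, and the labels do not say which tissue it was taken over. It was 35.3, 35.24, 32.77, 30.02 and 28.98 ms in mice 1 to 5. The comparison asks how each marker varied with T2. A slope gives the log2 units gained for each ms of T2, printed with its ordinary standard error (SE, n = 5), and a negative slope means a lower intensity at higher T2. Folds compare the fitted intensity at the lowest T2 with that at the highest, 6.32 ms apart, and carry a 95% interval from the moderated fit.

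Monocytes are made in the bone marrow, circulate in blood and enter inflamed tissue, where they can become macrophages or dendritic cells. Many tissues also hold resident macrophages that maintain themselves, and pancreatic islets are known for a resident macrophage population. Csf1r, the receptor for the growth factors CSF1 and IL-34, is needed for the survival of most macrophages and is held by monocytes as well. Because markers of the lineage overlap, the list was read by role. Adgre1 and Cd68 were taken as leaning to macrophages. Csf1r, Cd14, Sirpa and Lyz2 were taken as shared by both cells, and Ly6c2, Plac8, Chil3 and Vcan as leaning to classical, Ly6C-high monocytes.

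The arrays were alike in their overall distribution, with median intensities between 23.8 and 24.5. Ptprc, the gene of CD45 itself, had a log2 intensity of 11.06 ± 0.10 (SD, n = 5). The labels name no batch, date or slide, and T2 declined with the number of the mouse, so an effect of handling in that order cannot be told apart from T2. In these bulk samples fewer cells of a type and less RNA per cell cannot be told apart either. Levels of different probe sets are not comparable as amounts of transcript, because probes differ in their binding, so the markers are compared below by their differences between mice.

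The markers showed a pair of patterns. Adgre1, Cd68, Csf1r, Cd14 and Lyz2 were ordered by T2, with mouse 3 above both high-T2 mice and below both low-T2 mice, and Plac8, Chil3, Vcan and Sirpa were lowest in mice 2 and 4. Of all genes tested, 3.59% had the former order and 3.45% had mice 2 and 4 lowest. Both orders were described after the values had been seen, and some gaps were small, as between mouse 1 and mouse 3 for Csf1r.

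Of the 7 markers past the filter, 6 had a negative T2 slope, as did 67.9% of all genes tested, while 28.9% had a positive one. Their median slope was -0.07 log2 per ms against -0.0074 for all genes. Of all genes tested, 38.2% had equal values on 3 or more arrays and no marker did, so this background is not fully like the markers. At an unadjusted p under 0.05, 3 markers, Adgre1, Cd14 and Lyz2, had a negative slope and 0 a positive one. The shares of all genes were 4.59% and 0.697%, and 5.29% in both directions. No marker and no gene (0 of 6603, 0.0%) passed limma's test at a Benjamini-Hochberg adjusted p under 0.05, and 349 genes had an unadjusted p under that value.

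**Figure D1:**
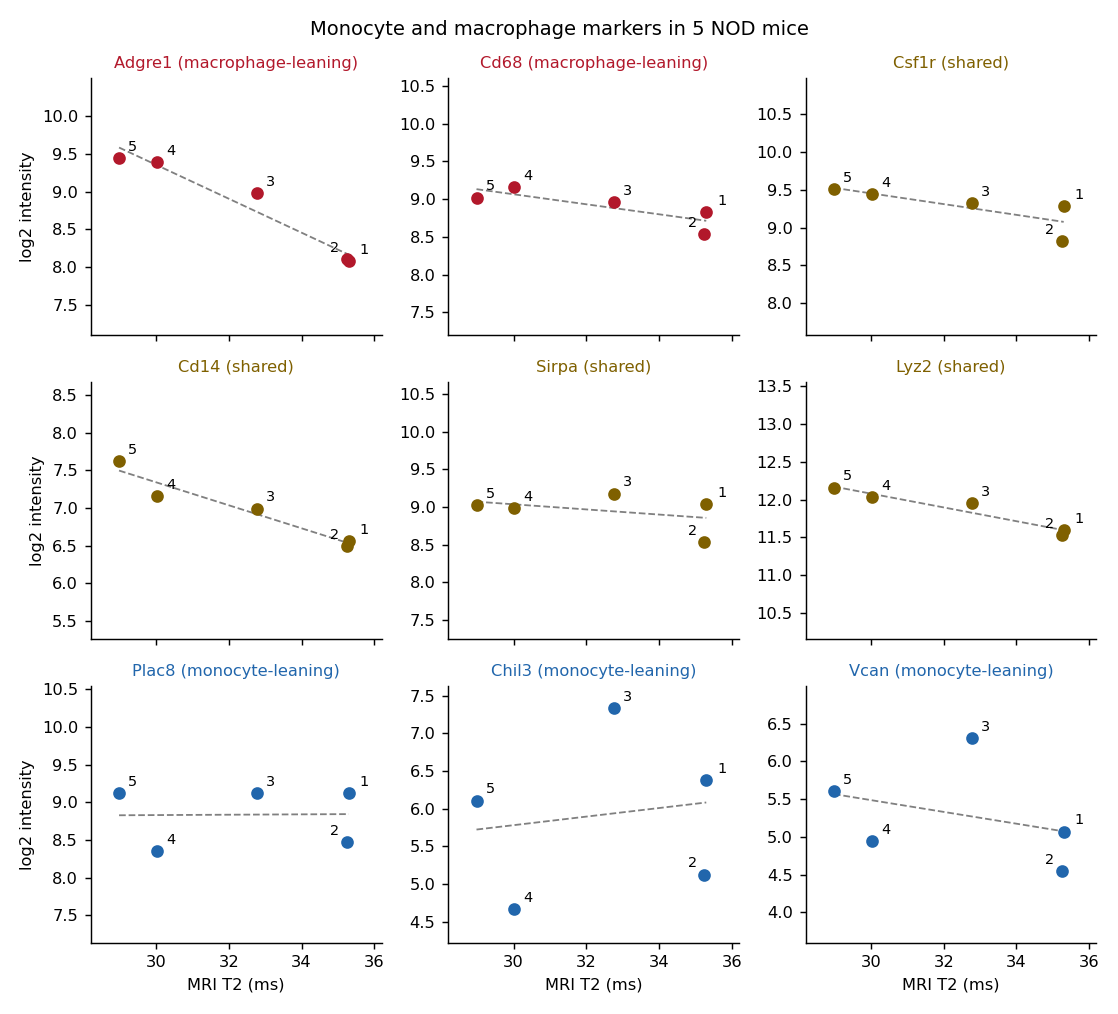
Log2 intensity of 9 markers (vertical axis, 3.4 log2 units high in every panel) against the T2 label of each mouse in ms (horizontal axis), with points numbered by mouse and a dashed line for the fitted slope. Adgre1, Cd14 and Lyz2 decline from left to right, and in the bottom row mice 2 and 4 lie lowest.

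Adgre1 encodes an adhesion-type G protein-coupled receptor that antibodies use to identify mouse macrophages. Its log2 intensity was 8.08, 8.10, 8.98, 9.39 and 9.45 in mice 1 to 5. The high-T2 pair lay together at the low end, the low-T2 pair together at the high end, and mouse 3 between them, nearer the latter. The slope was -0.22 ± 0.031, and limma's adjusted p was 0.299, with a fold of 2.68 (1.92 to 3.75). Over 15 alternative settings the adjusted p ran from 0.0354 to 0.813, and Adgre1 passed the threshold in 1 of them, in which genes with equal values on 3 or more arrays were left out.

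Eosinophils can also carry the Adgre1 protein. Their list has 9 genes, 7 with a single-gene probe set, and 1 of these passed the filter, Alox15, a lipoxygenase that large peritoneal macrophages hold as well. The defining eosinophil genes Siglecf, Prg2, Epx and Ccr3 had mean log2 intensities of 5.07, 3.69, 3.66 and 3.72, all under the filter. Their slopes were 0.0069, -0.0085, 0.00039 and 0.0055 log2 per ms. Alox15 had -0.26 ± 0.056 (limma adjusted p = 0.488), near the slope of Adgre1, and Il5ra, the interleukin-5 receptor chain, read 6.43, 5.30, 5.50, 5.60 and 6.59 in mice 1 to 5, high in mice 1 and 5, with a slope of -0.06 ± 0.11 and a mean under the filter. The part of eosinophils in the values of Adgre1 was not tested.

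Cd68 encodes a glycoprotein of the endosomes and lysosomes of macrophages. It read 8.83, 8.54, 8.96, 9.16 and 9.02 in mice 1 to 5 on the log2 scale. Mouse 2 was low and mouse 4 high, and the gap of 0.29 between mice 1 and 2, which have nearly the same T2, was larger than the gap of 0.19 between mice 1 and 5. The slope was -0.07 ± 0.027, its fold 1.34 (0.994 to 1.80), and limma's adjusted p 0.828. Without mouse 2 the slope was -0.04. Adgre1 and Cd68 thus differed in size, with SDs over the mice of 0.67 and 0.24.

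Among the shared markers, Cd14, the co-receptor that hands bacterial lipopolysaccharide to TLR4, had the steepest slope. Its log2 intensity was 6.56, 6.50, 6.99, 7.15 and 7.62 in mice 1 to 5. It was highest in the mouse of lowest T2, by 0.46 over mouse 4. The slope was -0.15 ± 0.024 and the fold 1.95 (1.505 to 2.53; limma adjusted p = 0.333). Without mouse 5 the slope was -0.12, the shallowest with any mouse left out.

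Lyz2 encodes lysozyme M, an antibacterial enzyme made by macrophages, monocytes and neutrophils. It read 11.60, 11.52, 11.95, 12.03 and 12.16 in mice 1 to 5. The groups of high and low T2 did not overlap, and the whole range was 0.63 log2 units. The slope was -0.09 ± 0.015 and the fold 1.49 (1.26 to 1.77; limma adjusted p = 0.351).

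Csf1r read 9.29, 8.82, 9.33, 9.44 and 9.51 in mice 1 to 5. Mouse 2 stood 0.46 below mouse 1 at nearly the same T2, and the other 4 mice lay within a narrow band. The slope was -0.07 ± 0.034, with a fold of 1.37 (0.945 to 1.98; limma adjusted p = 0.828), and it was -0.03 without mouse 2 and -0.10 without mouse 1. Across the 5 mice the centred values of Csf1r and Cd68 differed by a root mean square of 0.085 log2, the smallest difference between any 2 of the 9 markers. Both have small spreads, which also makes such a difference small.

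Sirpa encodes the inhibitory receptor SIRP alpha, which binds CD47 on other cells and restrains their uptake, and conventional dendritic cells carry it too. It read 9.04, 8.54, 9.18, 8.98 and 9.02 in mice 1 to 5. Mouse 2 was low and the other 4 mice lay between 8.98 and 9.18 in no order of T2. The slope was -0.03 ± 0.044 (fold 1.16, 0.717 to 1.88; limma adjusted p = 0.863), and it was 0.01 without mouse 2.

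The monocyte-leaning markers had no such order. Plac8, a small cysteine-rich protein of monocytes, neutrophils and plasmacytoid dendritic cells, read 9.12, 8.47, 9.12, 8.35 and 9.12 in mice 1 to 5. Mice 1, 3 and 5 were nearly equal, and mouse 2 lay 0.65 below mouse 1 and mouse 4 lay 0.77 below mouse 3. Its slope was 0.0024 ± 0.077, with a fold of 0.989 (0.426 to 2.30; limma adjusted p = 1). The interval includes folds as large as that of Cd14, so a slope of that size was not detectable against this spread.

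Chil3 encodes Ym1, a chitinase-like protein of monocytes, neutrophils and alternatively activated macrophages. Its log2 intensity was 6.37, 5.12, 7.33, 4.66 and 6.11 in mice 1 to 5. It had the widest range of the 9 markers, 2.67 log2 units, and mice 3 and 4 stood at the ends. Its mean of 5.92 lay just under the filter, so it was not tested, and its slope was 0.06 ± 0.21, or -0.07 without mouse 4. The intensity in mouse 4, 25.4, was near the median intensity of that array, 23.8.

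Vcan encodes versican, a large proteoglycan that classical monocytes hold. It read 5.07, 4.54, 6.30, 4.94 and 5.61 in mice 1 to 5, on a mean of 5.29. Mouse 3 was high, as for Chil3, and the intensity in mouse 2 was 23.3, near the median of that array. The slope was -0.08 ± 0.13, with no test, and it was -0.0019 without mouse 2 and -0.14 without mouse 4.

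**Figure D2:**
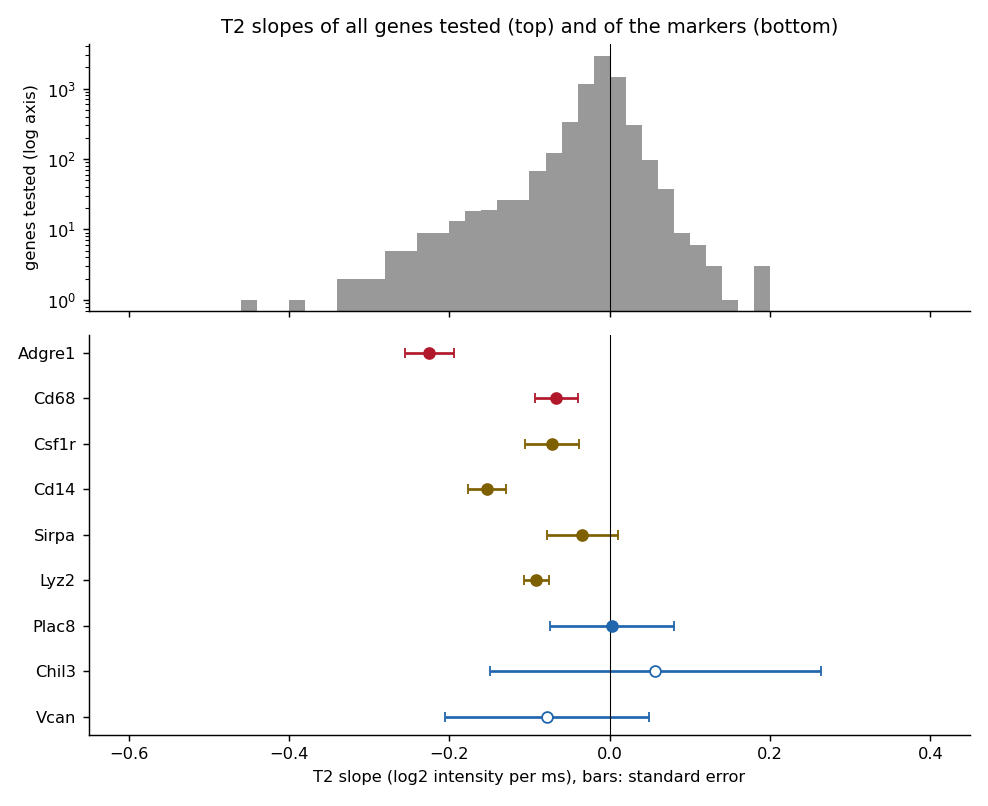
The upper panel counts the 6603 genes tested by T2 slope (log axis), and the lower panel gives the slope of each marker with its SE as a bar, with open symbols for Chil3 and Vcan, which were under the filter. Adgre1 lies at -0.22, in the negative tail of all genes, while Plac8 lies at 0.0024 with a bar that spans 0.

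The roles were then set against each other. The mean of Adgre1 and Cd68 had a slope of -0.15 ± 0.025, that of Csf1r, Cd14, Sirpa and Lyz2 had -0.09 ± 0.025, and that of Plac8, Chil3 and Vcan had -0.0063 ± 0.13. The macrophage-leaning mean minus the monocyte-leaning mean was 1.60, 2.27, 1.39, 3.29 and 2.29 log2 in mice 1 to 5. The slope of that difference was -0.14 ± 0.12, about the size of its SE, and it was -0.05 without mouse 4 and -0.22 without mouse 5. With the mean of 8 neutrophil genes as a covariate it was -0.17 ± 0.040, on 2 residual degrees of freedom, so its size against its SE rested on whether that mean was in the fit.

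The difference between Adgre1 and each monocyte-leaning marker was also tested by exact permutation of T2 over its 120 orders, two-sided, which can give no p below 0.00833. Adgre1 minus Plac8 was -1.04, -0.37, -0.14, 1.04 and 0.33 log2 in mice 1 to 5. It was lower in both high-T2 mice than in both low-T2 mice, and mouse 4 exceeded mouse 5. Its slope was -0.23 ± 0.081 (exact permutation p = 0.0667, adjusted over the 3 differences p = 0.2). The slopes of Adgre1 minus Chil3 and of Adgre1 minus Vcan were -0.28 ± 0.19 and -0.15 ± 0.11 (exact permutation p = 0.225 and 0.267, both 0.267 when adjusted). Without mouse 4 they were -0.15 and -0.08, and without mouse 2 Adgre1 minus Chil3 was -0.41 and Adgre1 minus Vcan -0.21. With the neutrophil covariate the slopes of Adgre1 minus Plac8, Chil3 and Vcan were -0.24 ± 0.082, -0.33 ± 0.072 and -0.18 ± 0.019, with no permutation test. Without the covariate none of the 3 differences passed, and the fourth, with Ly6c2, was not made.

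Neutrophil genes moved with the monocyte-leaning markers. The mean of 8 neutrophil genes past the filter was 7.48, 7.04, 8.69, 6.90 and 8.03 in mice 1 to 5, lowest in mice 2 and 4 and highest in mouse 3. Of the 8 genes, 7 were lowest in mice 2 and 4, against 3.45% of all genes tested. The filter used the mean of all 5 mice, so a gene could enter through the mice where it was high. Ngp read 5.74 and 4.70 in mice 2 and 4 against 8.38 in mouse 3. Lcn2 read 5.97 in mouse 4 and Mmp9 5.89 in mouse 2. These genes count in the mean, which is also the covariate. Ly6g, which defines the lineage, read 4.44, 4.33, 5.86, 3.73 and 5.29, under the filter, with its lowest value in mouse 4 and its highest in mouse 3. With this mean as a covariate beside T2, its coefficient was 1.39 ± 0.22 log2 per log2 unit for Chil3, 0.86 ± 0.14 for Vcan and 0.44 ± 0.21 for Plac8, on 2 residual degrees of freedom. It was 0.20 ± 0.16 for Sirpa, 0.13 ± 0.068 for Cd14, 0.11 ± 0.13 for Adgre1, 0.10 ± 0.032 for Lyz2, 0.09 ± 0.15 for Csf1r and 0.03 ± 0.13 for Cd68.

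The T2 slopes of Adgre1, Cd14 and Lyz2 were nearly as large with the neutrophil mean in the fit, at -0.22 ± 0.032, -0.15 ± 0.017 and -0.09 ± 0.0081. The slopes of Chil3 and Vcan had smaller SEs with it, at 0.11 ± 0.056 and -0.04 ± 0.036 against 0.21 and 0.13 without. The part of neutrophil RNA in the values of Plac8, Chil3 and Vcan was not tested.

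**Figure D3:**
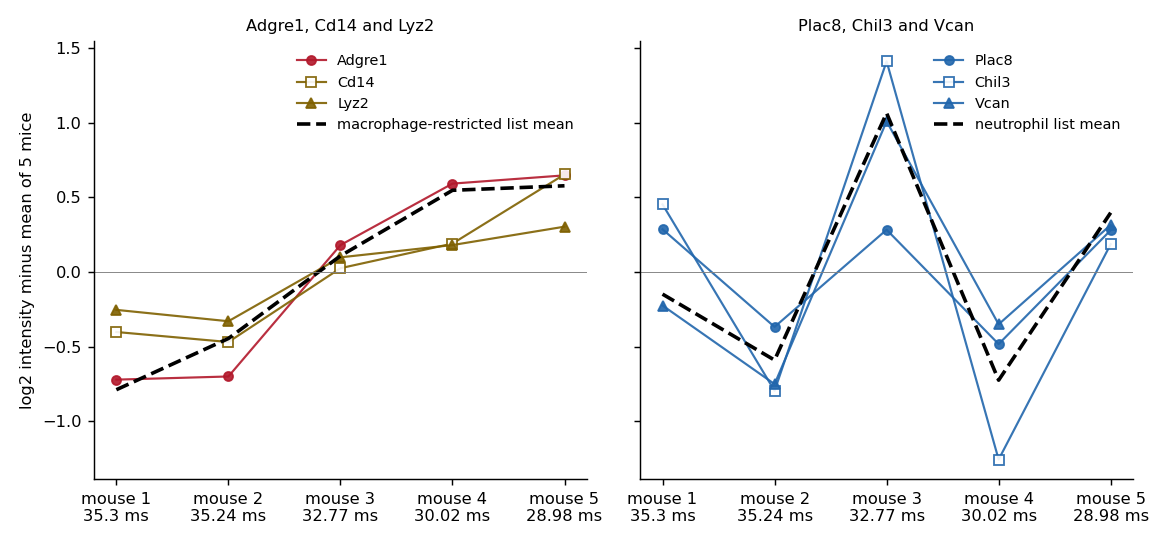
Log2 intensity in each mouse minus the mean of the 5 mice (vertical axis), for Adgre1, Cd14 and Lyz2 with the mean of 10 macrophage-restricted genes (left) and for Plac8, Chil3 and Vcan with the mean of 8 neutrophil genes (right), with lines joining the values of a gene and T2 under each mouse. The left profiles climb as T2 declines, and the right ones dip in mice 2 and 4, with Chil3, Vcan and the neutrophil mean highest in mouse 3 and Plac8 nearly level in mice 1, 3 and 5.

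Other genes of monocytes were read from lists that hold none of the 10 markers. Of 14 genes of classical monocytes, 12 could be read from a single-gene probe set and 11 passed the filter. Of these, 8 had a negative and 3 a positive slope, against 67.9% and 28.9% of all genes tested. At an unadjusted p under 0.05, 3 of the 11 had a negative slope, against 4.59% of all genes, and 0 passed over all genes tested. The median slope of the list was -0.05 and the list mean had a slope of -0.05 ± 0.045. The genes with the largest moderated t were Fn1, which encodes the matrix protein fibronectin, and Cd177, a surface protein of neutrophils. Their slopes were -0.16 ± 0.018 and -0.11 ± 0.031 (limma adjusted p = 0.254 and 0.634), and Fn1 is also in the peritoneal macrophage list below.

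In the same list 6 of 11 genes were lowest in mice 2 and 4, the order of Plac8, against 3.45% of all genes tested. Among the 6, Ifitm6 met it narrowly, at 7.690 in mouse 4 against 7.696 in mouse 1. F13a1 and Ccr2 were also among the 6. Picked after their values were seen, F13a1, the A chain of coagulation factor XIII, read 8.20, 7.39, 8.72, 7.22 and 7.91 in mice 1 to 5, and Ccr2, the chemokine receptor that draws classical monocytes from marrow, read 7.58, 7.41, 7.66, 7.46 and 7.62. F13a1 spanned a wide range and Ccr2 a narrow one. Their slopes were 0.04 ± 0.12 and -0.0074 ± 0.021.

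Of 11 genes of patrolling, Ly6C-low monocytes, all 11 passed the filter, 9 with a positive and 2 with a negative slope, and 6 were lowest in mice 2 and 4. The shares of all genes tested were 28.9%, 67.9% and 3.45% in that order. Among the 6, Nr4a1, Ace and Treml4 stood high in mouse 1, at 9.09, 8.395 and 8.15 against at most 8.63, 7.82 and 7.69. Fcgr4 read 6.298 in mouse 4 against 6.306 in mice 1, 3 and 5. Cx3cr1 was level in mice 1 and 3, at 7.93, and Pglyrp1 was highest in mouse 3. The list mean was 7.91, 7.63, 7.69, 7.58 and 7.74 in mice 1 to 5, highest in mouse 1. The part of mouse 1 in these slopes was not tested. The median slope was 0.03. At an unadjusted p under 0.05 there was 1 gene, Cd36, a scavenger receptor that macrophages hold as well, at -0.11 ± 0.045. The share of all genes in that direction was 4.59%, and 0 of the list passed over all genes. Cd300e, an activating receptor of monocytes, had a slope of 0.06 ± 0.027 (limma adjusted p = 0.828 for both).

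Of the genes that macrophages hold and blood monocytes largely lack, some had steeper slopes and others were nearly flat. Of 18 listed, 17 had a probe set and 10 passed the filter, with a median slope of -0.23. Of these, 9 had a negative slope, against 67.9% of all genes tested. The other 1, Maf, a transcription factor of macrophages and T cells, had a positive one, at 0.06 ± 0.029. Slc40a1 and Hmox1 had -0.0059 ± 0.11 and -0.07 ± 0.036. Under the filter, Mertk and Mrc1 had -0.16 and -0.05, and Cd163, Gpnmb, Trem2, Marco and Siglec1 lay between -0.010 and 0.013. Among the 10 past the filter, 7 had an unadjusted p under 0.05, all negative, against 4.59% of all genes tested. Of the 10, 0 passed over all genes. The filter used the mean of all 5 mice, so a gene under 6 at high T2 could enter through the low-T2 mice. Among the 7, Vsig4 read 4.86 and 5.97 in mice 1 and 2, and Cd5l read 5.58 in mouse 1. Both count in the median slope and the list mean. C1qa, C1qb, C1qc, Apoe and Timd4, also among the 7, were above 6 in every mouse. C1qa, a chain of the complement component C1q, read 7.28, 7.47, 8.21, 8.92 and 8.84 in mice 1 to 5. Apoe, an apolipoprotein that macrophages secrete, read 9.22, 9.06, 9.77, 10.22 and 10.73. Both were lowest in mice 1 and 2, and their slopes of -0.25 ± 0.032 and -0.24 ± 0.022 (limma adjusted p = 0.266 and 0.243) were near that of Adgre1 and steeper than those of Cd68, Csf1r and Lyz2. This list was chosen with its direction already known from these data, so its count is not independent evidence.

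Genes of large peritoneal macrophages, a list that shares Timd4 with the macrophage-restricted one, moved with Adgre1 too. All 11 past the filter had a negative slope and 10 had an unadjusted p under 0.05, against 67.9% and 4.59% of all genes tested. The median slope of the list was -0.20, with 0 past the adjusted threshold. The mean of the list was 8.02, 8.36, 8.86, 9.39 and 9.35 in mice 1 to 5, in the same order as Adgre1 apart from mice 4 and 5. Gata6, the transcription factor that defines these cells, read 6.45, 6.86, 7.13, 7.98 and 7.38, above the filter in every mouse. The part of such cells in the values of Adgre1, Cd14 and Lyz2 was not tested. This list too was known to move in these data.

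**Figure D4:**
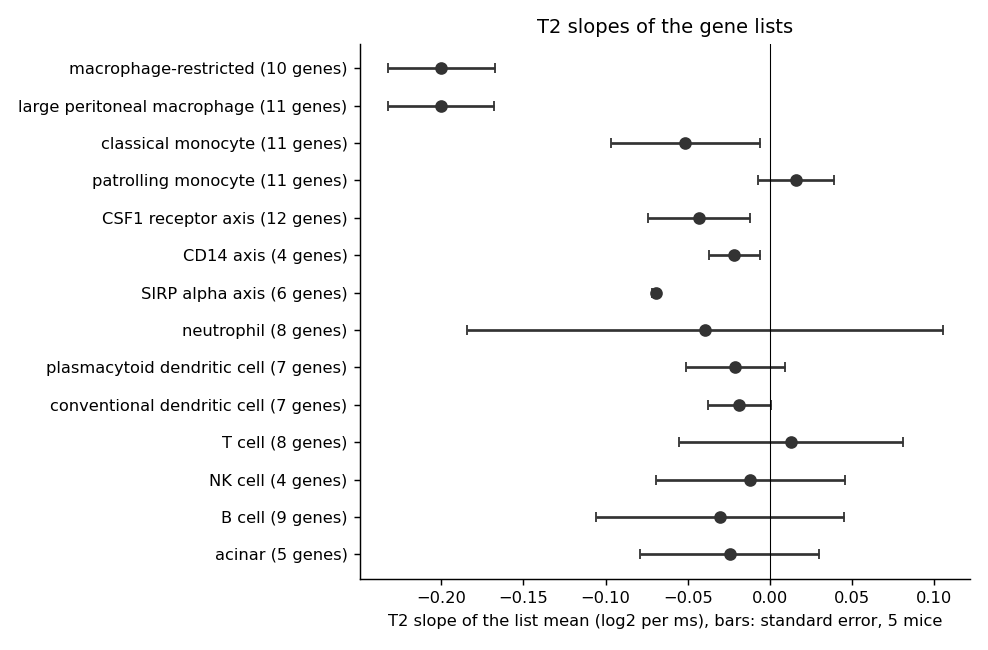
T2 slope of the mean of each gene list in log2 per ms (horizontal axis) with its SE over 5 mice, and the number of genes past the filter in brackets. The macrophage-restricted and large peritoneal macrophage lists lie at -0.20, the classical monocyte list at -0.05, and the patrolling monocyte list at 0.02.

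The partners of the shared receptors were read next. Csf1 and Il34, the ligands of the CSF1 receptor, had mean log2 intensities of 5.20 and 4.26, under the filter, with SDs of 0.032 and 0.036. Of the 17 genes of the CSF1 receptor axis and its lineage factors, 12 passed the filter. All 12 had a negative slope, against 67.9% of all genes tested, with a median of -0.04 and 0 at an unadjusted p under 0.05. Cebpb, Klf4, Zeb2 and Runx1 had equal values on 3 arrays, so their slopes rest on the remaining mice. Spi1 encodes PU.1, the transcription factor that myeloid cells need and that binds the Csf1r gene. It read 8.80, 8.24, 8.73, 8.63 and 8.63, low in mouse 2 as Csf1r was. Cebpa, a factor of myeloid progenitors, and Klf4, a factor of monocytes, had slopes of -0.08 ± 0.038 and -0.04 ± 0.022 (limma adjusted p = 0.828 for both).

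Of 8 partners of CD14 in lipopolysaccharide sensing, 4 passed the filter, 3 with a negative and 1 with a positive slope. Of all genes tested, 67.9% and 28.9% had such slopes. Of the 4 partners, 0 had an unadjusted p under 0.05. Tlr4 and Ly96, which form the receptor complex that CD14 serves, had mean log2 intensities of 4.82 and 4.39, under the filter. Tlr2, another receptor that CD14 assists, had a slope of -0.07 ± 0.035, and the adaptor gene Ticam2 had -0.0060 ± 0.0068 (limma adjusted p = 0.828 and 0.863). Ticam2 had equal values on 3 arrays.

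Of 7 partners of SIRP alpha, 6 passed the filter and all 6 had a negative slope, with a median of -0.02. Of all genes tested, 67.9% had a negative slope. Among the 6 partners only Thbs1, thrombospondin-1, a ligand of CD47, had an unadjusted p under 0.05. It read 8.35, 8.93, 9.56, 10.57 and 10.50 in mice 1 to 5, a slope of -0.32 ± 0.050 and a fold of 4.08 (2.37 to 7.03; limma adjusted p = 0.333), and it was low in both high-T2 mice. Ptpn11, a phosphatase that SIRP alpha recruits, had -0.02 ± 0.013, and the values of Cd47 itself had an SD of 0.035. Ptpn11 and Cd47 each had equal values on 3 arrays.

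The list means of other leukocytes that share genes with the list had other orders. The mean of 7 genes of plasmacytoid dendritic cells, which hold Plac8 and Ly6c2, was 6.37, 6.61, 6.61, 6.40 and 6.77 in mice 1 to 5, low in mice 1 and 4. The mean of 7 genes of conventional dendritic cells, which hold Sirpa, ran from 7.14 in mouse 1 to 7.41 in mouse 4. Among these genes, Fscn1 was ordered by T2, at 6.82, 7.19, 7.72, 8.27 and 7.85 in mice 1 to 5. Its slope was -0.17 ± 0.054 (limma adjusted p = 0.727). Itgax and Dpp4 in the same mean had equal values on 4 arrays. The list means of T cells, NK cells and B cells had slopes of 0.01 ± 0.068, -0.01 ± 0.057 and -0.03 ± 0.075, and that of acinar cells, the digestive enzyme cells of the pancreas, had -0.02 ± 0.054. These means were not level over the mice. The T cell and NK cell means were highest in mouse 2, at 9.12 and 7.20, and lowest in mouse 1, at 8.16 and 6.45. The B cell and acinar means were lowest in mouse 2, at 8.41 and 6.57, and highest in mouse 1, at 9.34 and 7.32. The part of all these cells in the values of the markers was not tested.

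Lyz2, Chil3 and Ly6c2 each have a close copy beside them in the genome, which bears on what a probe set can read. Both probe sets that list Ly6c2 also list Ly6c1, so no value was assigned to either gene. The 120 bases before the start site of each copy are shown to make the likeness visible, read from RefSeq on GRCm38.p6, where 6 of the 10 markers had an entry. The array reads transcripts, not this stretch. All lie on the minus strand and run 5′ to 3′, and capitals mark AGGAAGT or its reverse complement ACTTCCT, which hold the GGAA core that PU.1 and other ETS factors bind.
Lyz2 at chr10:117282273-117282392: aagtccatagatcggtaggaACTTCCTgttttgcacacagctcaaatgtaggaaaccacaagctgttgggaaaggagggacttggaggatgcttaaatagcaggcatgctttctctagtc
Lyz1 at chr10:117292869-117292988: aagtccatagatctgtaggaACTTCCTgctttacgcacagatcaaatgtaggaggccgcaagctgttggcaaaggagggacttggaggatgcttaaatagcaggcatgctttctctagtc
Ly6c2 at chr15:75111972-75112091: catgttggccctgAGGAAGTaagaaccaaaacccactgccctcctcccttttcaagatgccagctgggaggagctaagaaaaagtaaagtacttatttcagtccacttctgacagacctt
Ly6c1 at chr15:75048838-75048957: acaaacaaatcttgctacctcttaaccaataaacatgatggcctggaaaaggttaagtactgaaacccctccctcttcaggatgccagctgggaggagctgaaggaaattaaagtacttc
Chil3 at chr3:106167565-106167684: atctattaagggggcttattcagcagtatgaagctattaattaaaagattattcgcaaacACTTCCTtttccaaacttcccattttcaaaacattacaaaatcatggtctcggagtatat
Chil4 at chr3:106219480-106219599: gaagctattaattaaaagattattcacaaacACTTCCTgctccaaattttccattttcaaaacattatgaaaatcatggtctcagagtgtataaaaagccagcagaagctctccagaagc

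In a pairwise alignment of these windows Lyz2 and Lyz1 shared 111 of 120 bases, Chil3 and Chil4 shared 83 of 91 aligned bases, and Ly6c2 and Ly6c1 shared 70 of 95. The alignments held 0, 58 and 50 gap positions in that order. The shares of the Chil and Ly6c pairs thus leave out part of each window. The motif was present in the window of Lyz2, Chil3 and Ly6c2 and absent from those of Cd68, Plac8 and Vcan, against 4.46% of the windows of 27025 genes on both strands. It was picked with these sequences in view, and a match describes letters, not binding.

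The copies were measured as follows. Lyz1, the lysozyme of intestinal Paneth cells, read 9.12, 8.55, 9.31, 10.03 and 9.43 in mice 1 to 5, a slope of -0.14 ± 0.067 (limma adjusted p = 0.828). It was highest in mouse 4, where Lyz2 was not. Transcripts of such close copies may bind each other's probes, so both values are uncertain. Chil4 had a mean log2 intensity of 2.99, under the filter, with an SD of 0.098 against 1.05 for Chil3. Chil1, a more distant chitinase-like gene, had a slope of -0.12 ± 0.091 and, like Chil3, its highest value in mouse 3, 8.33.

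Genes with the most similar profiles were sought for the 3 tested markers with an SD of at least 0.3, by the root mean square difference of centred log2 values over the 5 mice among all genes tested. For Adgre1 these were Itgam (CD11b, an integrin chain of myeloid cells) at 0.11, Pros1 (protein S, an anticoagulant and ligand of phagocytic receptors) at 0.11 and Cfp (properdin of the alternative complement pathway) at 0.12. Itgam read 8.96, 8.98, 9.60, 10.14 and 10.13 in mice 1 to 5, low in mice 1 and 2 as Adgre1 was. For Cd14 they were Ppfibp1 at 0.081, Snu13 at 0.088 and Fam20c at 0.092. For Plac8 they were S100a6, a calcium-binding protein, at 0.077, Marcks, a membrane-bound kinase substrate, at 0.13 and Mpeg1, the pore-forming perforin-2 of phagocytes, at 0.14. S100a6 read 7.75, 6.999, 7.66, 7.08 and 7.65, lowest in mice 2 and 4. With 5 mice and 6603 genes, close profiles occur for many genes.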

How the data were processed

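Total RNA of CD45+ cells from 5 NOD mice was hybridised to 1 array for each mouse. The authors deposited linear intensities of 35556 probe sets, from 2.87 to 19435. The submitters' processing notes name RMA and Affymetrix Power Tools. RMA brings all arrays to 1 distribution, which removes differences in total signal. For both, the version is not given in the sources used here.

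Intensities were taken to log2. GEO's platform annotation gave 1 gene symbol for 21789 of the probe sets, several for 1621 and none for 12146. The probe set of highest mean was used for a gene, and genes with a mean log2 of at least 6 were tested. A linear model with T2 as its term was fitted in limma 3.58.1 (lmFit, then eBayes, under R 4.3.3), two-sided, with Benjamini-Hochberg adjustment over all 6603 genes at 0.05. The fit was also run on simulated data with known slopes as a check of the code. Its power at the slopes reported here is not given.

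The labels name separate mice, and the p-values measure the spread of these 5 around the fit. The number of arrays limits the precision. The members and lists were chosen with earlier results of these data known. Every marker is named. Beyond them the rule named 2 genes of each list by moderated t, the copies of markers, and 3 genes of most similar profile. Other genes were picked after their values were seen. Apart from Cd177, Mmp9 and Fscn1, the named genes of lymphocyte, dendritic, neutrophil and acinar lists are given as list means. The planned contrast with Ly6c2 could not be made. Alternatives were other filters, normalizations, probe-set means, ranks of T2, variance models, array weights, a neutrophil covariate, genes without equal values and each mouse left out.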

Additional observations from a re-analysis of the deposited data

Results flagged for a closer look

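The values of 9 markers and the means of 14 lists with at least 3 genes past the filter, 23 sets of values in all, were searched for a mouse that stood apart from the other 4, by its gap to the nearest as a share of the whole range, with 0.71 as the limit. Chance gives about 1 in 20, and 1 of the 23 met the limit. The mean of 4 partners of CD14 was that set: mouse 2 was lowest at 6.66 against 6.84 to 6.90 in the others, a gap share of 0.729. No marker met it.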

How the results depend on the processing

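The count of genes past the adjusted threshold was 0, and it was 3 with a filter of 7, 4 after quantile renormalization, 4 with array weights, 35 without genes of equal values and 0 without each mouse. The count of markers at an unadjusted p under 0.05 was 3, and 5 with centred arrays, array weights or genes of equal values left out, and 3 to 4 without each mouse. With genes of equal values left out, 4079 genes were tested, and Adgre1 had an adjusted p of 0.0354 by limma. The slope of Plac8 was -0.04 without mouse 1, -0.00078 without mouse 3 and -0.052 without mouse 4, within -0.052 to 0.069 without each mouse. That of Sirpa was 0.012 without mouse 2, within -0.062 to 0.012. The slopes of Adgre1, Cd14, Lyz2, Csf1r and Cd68 were negative under all alternatives run on them. The slope of the role difference lay between -0.22 and -0.05 without each mouse. Chil3 and Vcan had values near or under the array median in some mice, and what limits the precision of their slopes was not tested.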
